A study of Homo sapiens with 4 samples.

Results

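The genes described here are 10 regulators and transcriptional targets of the YAP/TEAD complex, namely YAP1, WWTR1, CYR61, CTGF, ANKRD1, AMOTL1, AMOTL2, AJUBA, LATS2 and AXL. They were chosen by name, and all 10 were found once each among the 51103 genes of the deposited tables. CYR61 and CTGF are the older names of CCN1 and CCN2. The RNA came from cells labelled AGS, an established cell line derived from a human gastric adenocarcinoma. One group received recombinant human FGF2, a growth factor that signals through FGF receptors, at 20 ng/mL and was harvested after 24 h. The other is called NC, which the labels do not spell out, and the treatment text attached to its libraries also describes adding FGF2, so the treatment of the NC cells cannot be stated. Nothing else is named as differing between the groups, and serum-containing medium was shared by both.

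YAP1 and its relative TAZ, the product of WWTR1, are coactivators that carry no DNA-binding domain and act on genes through the TEAD transcription factors. The Hippo kinase cascade ends in LATS1 and LATS2, which phosphorylate both coactivators and keep them out of the nucleus. Angiomotin proteins also hold them in the cytoplasm, and AJUBA restrains the LATS kinases. CYR61, CTGF and ANKRD1 are the most widely used readouts of the complex in epithelial cells, and AMOTL2 and LATS2 are targets that feed back on it.

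Each group had 2 libraries, with total counts of 13790335 and 27598608 for FGF2 and of 14073340 and 27325697 for NC. Library 1 exceeded library 2 at only 2 genes in each group, which is the pattern of a deeper library that contains the reads of the shallower one, and each group was counted as 1 sample. No p-value is therefore given. Whether the added reads of library 2 came from the same culture is not known, so differences between cultures cannot be read from these data. Levels are FPKM (counts divided by exon length and by the library total). Fold changes are log2 ratios of FGF2 over NC from the counts of both libraries 2, with TMM scaling, which uses a trimmed mean of log ratios. Their 95% intervals cover counting error only. To check each fold change within a group, library 1 and the remainder of library 2 after subtracting it served as 2 read sets that share no reads. A gene is called higher or lower where each FGF2 read set lay beyond each NC read set, in the same direction, by 1.2-fold or more. The rule was applied to 11000 genes whose mean over the read sets reached 50 counts. Of these, 12.2% were higher and 13.7% lower. Of 8 epithelial markers, the keratin genes were abundant. KRT8 was lower in the FGF2 sample at 194 and 191 against 265 and 270 FPKM (-0.42, -0.44 to -0.40), and KRT19 was higher at 48.5 and 47.6 against 25.4 and 27.3 FPKM (0.88, 0.80 to 0.97). KRT18 stood at 193 to 201 FPKM and was called neither. EPCAM reached at most 1.19 FPKM, CLDN4 0.654 FPKM, CLDN7 0.175 FPKM and CDH1 0.196 FPKM, and CDH17 at most 2 counts. The mesenchymal genes COL1A1 (59.4 to 104 FPKM) and PDGFRB (5.96 to 21.6 FPKM) were detected in all 4 libraries. They belong to a list of 12 fibroblast markers, described further on, of which 8 had too few counts for the rule. COL1A1, PDGFRB, COL5A1 and THY1 had enough. Of those with too few, COL1A2 and FAP were at 0 in all 4 libraries, and POSTN had at most 2 counts. The keratins thus matched the epithelial label and EPCAM and CDH1 did not, and the identity of the line was not tested.

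The promoters of CTGF and ANKRD1 are shown first because their TEAD motifs are the textbook link between these genes and YAP. The sequences are the 250 bases before the transcript start, from RefSeq (GRCh38.p14), written 5′ to 3′ on the minus strand on which both genes lie. The CTGF stretch is chr6:131951373-131951622 and the ANKRD1 stretch is chr10:90921088-90921337. Capitals mark GGAATG or CATTCC, the core of the TEAD motif on either strand, and TGANTCA, the AP-1 motif, which reads alike on both strands.
CTGF: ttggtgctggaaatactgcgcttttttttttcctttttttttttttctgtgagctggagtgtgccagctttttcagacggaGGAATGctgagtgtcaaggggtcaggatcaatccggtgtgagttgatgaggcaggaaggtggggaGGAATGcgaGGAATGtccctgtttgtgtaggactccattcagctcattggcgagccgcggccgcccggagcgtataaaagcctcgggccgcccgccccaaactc
ANKRD1: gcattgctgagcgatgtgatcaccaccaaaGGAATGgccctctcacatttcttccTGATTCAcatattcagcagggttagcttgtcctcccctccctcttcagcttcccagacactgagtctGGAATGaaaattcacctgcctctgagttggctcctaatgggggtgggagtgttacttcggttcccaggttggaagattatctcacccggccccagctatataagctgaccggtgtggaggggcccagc

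The CTGF stretch held 3 TEAD matches, beginning 169, 104 and 95 bases before the start. The ANKRD1 stretch held 2, at 220 and 128 bases, and 1 AP-1 match at 195 bases. None of these matches overlapped another. Of 35116 RefSeq windows of the same length, 11.9% held at least 1 TEAD match, 0.94% at least 2 and 0.0826% at least 3, and 6.57% held an AP-1 match.

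A further 4 members had 1 TEAD match each in 1 of their windows. Their surroundings are shown as 30 bases on the gene's strand, with the match in capitals.
YAP1: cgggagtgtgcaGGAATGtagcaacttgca
AMOTL2: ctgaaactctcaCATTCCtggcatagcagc
AJUBA: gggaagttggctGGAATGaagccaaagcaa
AXL: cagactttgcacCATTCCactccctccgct

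These lie at chr11:102110273-102110302 (plus strand) for YAP1, chr3:134374499-134374528 (minus) for AMOTL2, chr14:22976884-22976913 (minus) for AJUBA and chr19:41226531-41226560 (plus) for AXL. In all, 9 of the 10 members had at least 1 RefSeq window, and 6 of their 13 windows held a TEAD match, against 11.9% of all windows. The exception without a window was CYR61. For AMOTL2, AJUBA and AXL the match lay in 1 of 2 windows, which was inside the gene span, and the other window held 0 matches. The members with a match included genes called higher (AXL), genes called lower (AMOTL2, AJUBA) and genes called neither (YAP1, CTGF, ANKRD1). A match is only a match of letters and was not measured as binding here.

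By level, the 10 genes spanned a wide range, and the order of their levels was nearly the same in both groups. In the NC sample CYR61 was the most abundant at 351 FPKM, above 99.5% of the genes with enough counts, followed by AXL at 139 FPKM and CTGF at 87.9 FPKM. AJUBA stood at 59.0 FPKM, AMOTL2 at 46.1 FPKM, ANKRD1 at 41.9 FPKM and YAP1 at 27.7 FPKM. AMOTL1 (14.1 FPKM), LATS2 (13.6 FPKM) and WWTR1 (4.95 FPKM) were the least abundant. In the FGF2 sample ANKRD1, at 46.3 FPKM, ranked above AJUBA at 40.5 FPKM and AMOTL2 at 34.3 FPKM, and the other 7 genes kept their ranks. AMOTL1 and LATS2 were the closest neighbours. No neighbours in either order overlapped between the 2 read sets of a group.

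**Figure D1:**
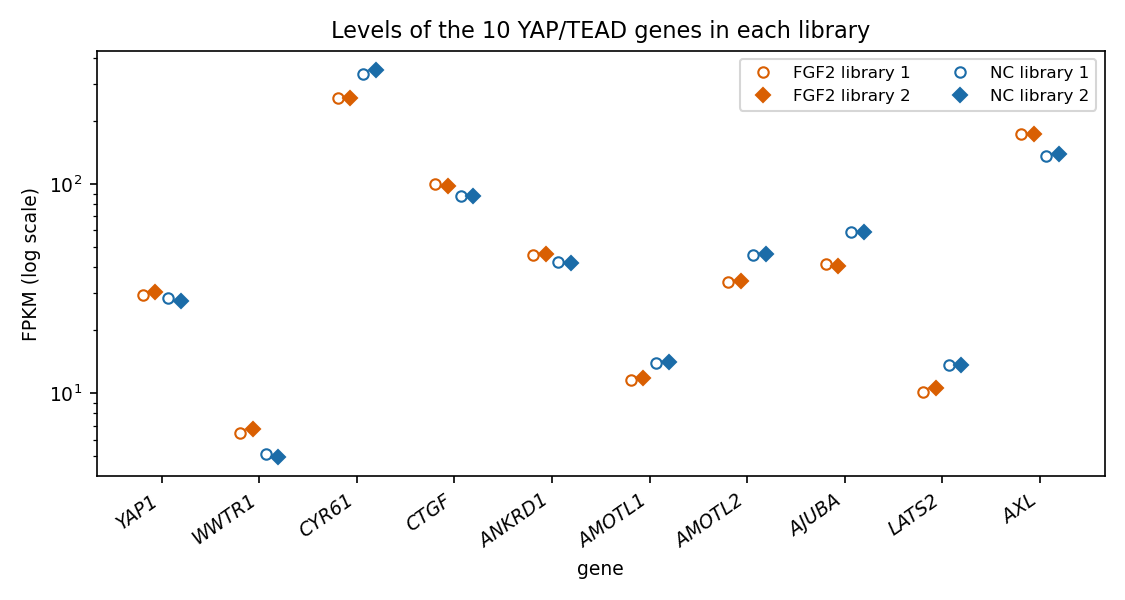
FPKM on a log scale of the 10 genes in each of the 4 deposited libraries, with FGF2 in orange and NC in blue, library 1 as open circles and library 2 as filled diamonds. The libraries of a group sit close together and share reads, so their closeness does not measure differences between cultures. CYR61, AXL and CTGF are the 3 most abundant genes in all 4 libraries.

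Across the 10 genes, 2 were at least 1.2-fold higher in the FGF2 sample (WWTR1 and AXL), 3 were at least 1.2-fold lower (CYR61, AMOTL2 and AJUBA) and 5 were neither. At that bound 12.2% of all genes tested were higher and 13.7% lower. None of the 10 reached 1.5-fold in either direction, a bound passed by 3.06% of all genes upward and 5.36% downward. Their median log2 fold change was 0.03, against 0.02 over all genes tested, and the values ran from -0.46 to 0.52. The read sets of the groups did not overlap for any of the 10, with 5 above and 5 below NC, as was the case for 36.6% (above) and 32.4% (below) of all genes tested. The 10 genes thus split by direction within small fold changes.

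Of the coactivators, WWTR1 was called higher and YAP1 was not. WWTR1 (ENSG00000018408, chromosome 3, 149517235 to 149736714), which encodes TAZ, stood at 6.45 and 6.71 FPKM in the FGF2 libraries and 5.09 and 4.95 FPKM in the NC libraries. Its log2 fold change was 0.52 (0.41 to 0.63). The separate read sets gave 0.42 and 0.61, and WWTR1 was called higher. YAP1 (ENSG00000137693, chromosome 11, 102110461 to 102233423) stood at 29.5 and 30.5 FPKM against 28.5 and 27.7 FPKM, a smaller gap in the same direction. Its log2 fold change was 0.22 (0.17 to 0.28), with 0.13 and 0.31 from the separate read sets, and it was called neither. YAP1 shares 9.97% and WWTR1 9.45% of exon length with an antisense gene, whose reads this unstranded library kit cannot tell apart. Per length YAP1 mRNA was 4.58 and 4.55 times that of WWTR1 in the FGF2 libraries and 5.60 and 5.58 times in the NC libraries.

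Among the 10 members, the cytoplasmic regulators of the coactivators (AJUBA, AMOTL2, AMOTL1 and LATS2) all had values below 0. Only AJUBA and AMOTL2 were called lower. Related regulators outside the 10, described further on, lay on both sides of 0. AJUBA (ENSG00000129474, chromosome 14, 22971174 to 22982642), whose LIM protein binds the LATS kinases at junctions, had the lowest fold change of the 10 members. It stood at 41.5 and 40.5 FPKM in the FGF2 libraries against 59.1 and 59.0 FPKM in the NC libraries. The log2 fold change was -0.46 (-0.51 to -0.42). AMOTL2 (ENSG00000114019, chromosome 3, 134355874 to 134375479), an angiomotin relative that binds YAP and is itself a YAP target, stood at 34.1 and 34.3 FPKM against 45.8 and 46.1 FPKM. It was lower at -0.35 (-0.40 to -0.30), with nearly equal values from the separate read sets (-0.34 and -0.36).

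AMOTL1 (ENSG00000166025, chromosome 11, 94706431 to 94876753), the other angiomotin relative among the 10, stood at 11.5 and 11.8 FPKM against 13.96 and 14.1 FPKM. Its log2 fold change of -0.17 (-0.24 to -0.10) stayed within the bound. The kinase gene LATS2 (ENSG00000150457, chromosome 13, 20973032 to 21061547) stood at 10.2 and 10.6 FPKM against 13.6 and 13.6 FPKM. Its log2 fold change was -0.28 (-0.37 to -0.18). All its read sets were below NC, but the closest pair differed by 1.17-fold, just outside the call, while CYR61 at 1.23-fold was just inside it. LATS2 was called lower, with 4 members lower in all, when counts were scaled by the total alone.

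The 3 classical target genes did not share a direction. CYR61 (ENSG00000142871, chromosome 1, 85580761 to 85583962), which encodes a secreted matricellular protein that binds integrins, stood at 258 and 258 FPKM in the FGF2 libraries and 335 and 351 FPKM in the NC libraries. It was lower in the FGF2 sample, with a log2 fold change of -0.36 (-0.39 to -0.33) from 17481 against 23530 counts. The separate read sets gave -0.30 and -0.43, a wider spread than that interval, as was also the case for YAP1. That interval covers counting error only. The cause of the wider spread was not tested.

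CTGF (ENSG00000118523, chromosome 6, 131948176 to 131951373), whose product belongs to the same CCN family, stood at 101 and 98.3 FPKM against 87.3 and 87.9 FPKM. Its libraries were on the opposite side of NC from those of CYR61, at 0.24 (0.19 to 0.29), and it was called neither. An antisense gene covers 8.34% of its exon length. ANKRD1 (ENSG00000148677, chromosome 10, 90912096 to 90921276), which encodes an ankyrin repeat protein best known from stressed heart muscle, stood at 45.8 and 46.3 FPKM against 42.4 and 41.9 FPKM. It too was called neither, at 0.22 (0.14 to 0.31), close to the value of CTGF.

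The ratio of CYR61 to CTGF within a library does not depend on how libraries are scaled. CYR61 mRNA per length was 2.56 and 2.63 times that of CTGF in the FGF2 libraries and 3.84 and 3.99 times in the NC libraries. The ratio of CTGF to ANKRD1 was 2.19 and 2.12 with FGF2 and 2.06 and 2.10 in NC. The first ratio thus differed between the groups while the second was nearly equal. The ratio of AMOTL2 to AMOTL1 lay between, at 2.96 and 2.90 with FGF2 and 3.28 and 3.27 in NC.

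**Figure D2:**
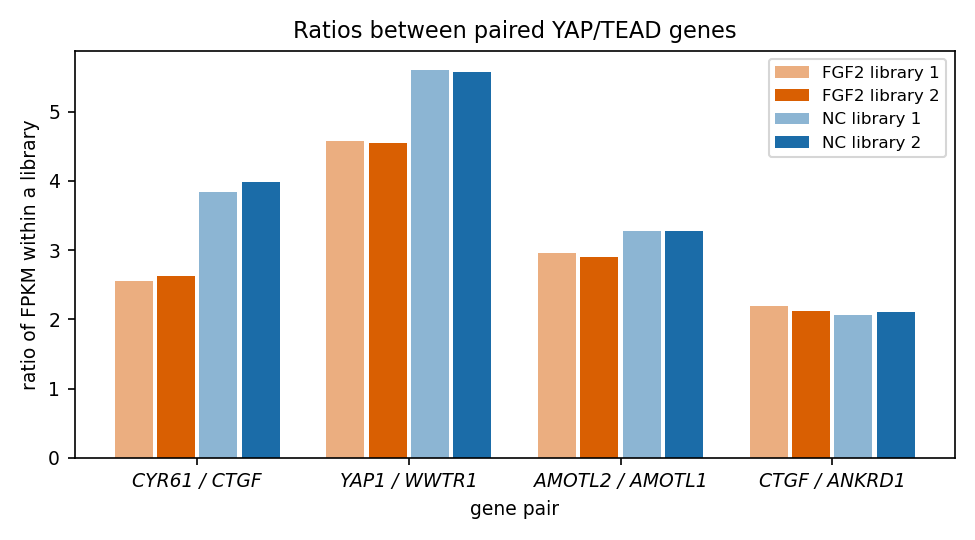
Ratio of FPKM between 2 genes of a pair within each library (bars from 0, FGF2 in orange and NC in blue, library 1 pale and library 2 dark). The CYR61 to CTGF bars are shorter in the FGF2 libraries (2.56 and 2.63) than in the NC libraries (3.84 and 3.99), while the CTGF to ANKRD1 bars stand between 2.06 and 2.19 in all 4.

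AXL (ENSG00000167601, chromosome 19, 41219203 to 41261766), a receptor tyrosine kinase of the TAM family and a YAP target, stood at 173 and 174 FPKM in the FGF2 libraries against 137 and 139 FPKM in the NC libraries. Both FGF2 libraries were above both NC libraries. AXL was higher at 0.41 (0.38 to 0.43) from 24747 against 19530 counts, with 0.42 and 0.38 from the separate read sets.

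**Figure D3:**
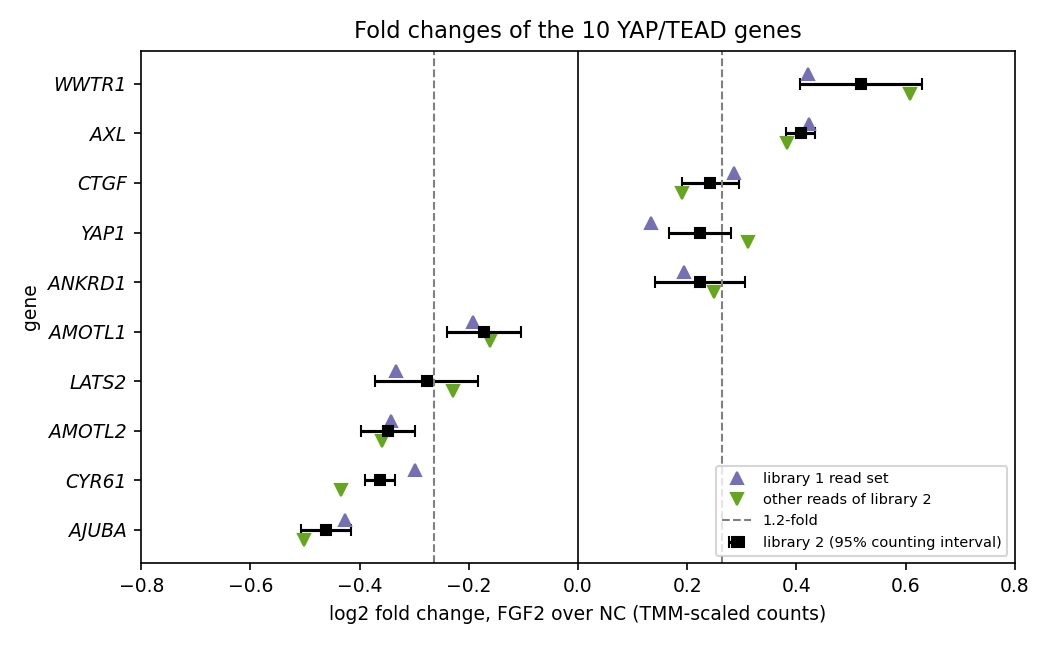
Log2 fold change of FGF2 over NC for the 10 genes, with black squares from library 2 and bars for the 95% counting interval, upward triangles from library 1 and downward triangles from the other reads of library 2. WWTR1 and AXL lie right of the dashed 1.2-fold line and AJUBA, CYR61 and AMOTL2 left of it with all 3 marks, whereas the YAP1, CTGF and LATS2 marks straddle a line.

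Other targets of a published YAP/TAZ signature, of which 16 lie outside the 10 members, moved further. Of these 16, 6 were at least 1.2-fold higher, 6 were lower and 4 were neither, where 12.2% and 13.7% of all genes were higher and lower. The median was 0.25, against 0.02 over all genes tested. At 1.5-fold, 2 were higher and 4 lower, against 3.06% and 5.36% of all genes. The higher ones were led by F3, which encodes tissue factor, with 8191 against 3622 counts (1.24, 1.19 to 1.30) and by NT5E, which encodes the ecto-enzyme CD73 (1.02, 0.92 to 1.12). DOCK5, a guanine nucleotide exchange factor gene, was at 0.54 and FJX1 at 0.49.

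On the lower side IGFBP3, whose secreted product binds insulin-like growth factors, had 359 against 3849 counts (-3.35, -3.52 to -3.20). CCDC80, an extracellular matrix gene, stood at 2.57 against 11.1 FPKM (-2.03, -2.14 to -1.93). TGFB2 was at -1.38, with 26.6% of its exons shared with a gene on the same strand. MYOF (0.20), CRIM1 (0.06), PTPN14 (0.30) and RBMS3 (0.32) were called neither. Of these 16 signature genes, 12 had 1 RefSeq window each, and 4 of these windows held a TEAD match, against 11.9% of all windows. The rest of the 16 had no window.

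Of 17 kinases, adaptors and inputs of the Hippo cascade, 3 were higher, 2 lower and 12 neither, with a median of 0.04. These shares are near those over all genes (12.2% higher and 13.7% lower). FRMD6, a FERM-domain gene upstream of the kinases, was higher at 0.62 (0.56 to 0.69), MAP4K4 at 0.38 and STK4, which encodes the kinase MST1, at 0.37. SAV1, the scaffold of the MST kinases, was lower at 19.5 against 31.5 FPKM (-0.62, -0.68 to -0.55), and 14.9% of its exons lie opposite another gene. The atypical cadherin gene FAT4 was lower at -2.42, from only 46 against 261 counts. LATS1, the relative of LATS2, stood at 5.60 and 5.88 FPKM against 5.55 and 5.45 FPKM (0.19, 0.08 to 0.30) and was called neither.

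None of the 6 TEAD and vestigial-like genes with enough counts was called. TEAD4 was the most abundant at 43.1 against 40.6 FPKM (0.17, 0.09 to 0.24), followed by TEAD1 at 25.8 against 30.3 FPKM (-0.15, -0.20 to -0.11). TEAD3 stood at -0.39 (-0.51 to -0.27) and TEAD2 at -0.44 (-0.61 to -0.27), and in both the closest read sets differed by 1.12-fold. In several alternatives that compared 1 value per group, 2 of the 6 genes were called lower. These were library 1 alone, NC library 2 left out, library 2 less library 1, the mean of both libraries and the deposited FPKM. Without FGF2 library 2, 1 of the 6 was higher and 1 lower. The share of all genes passing with 1 value per group, a looser rule, is not given. VGLL3 (-0.05) and VGLL4 (0.19), whose products bind TEAD proteins, were also within the bound. VGLL2 had 12 to 37 counts in the 4 libraries, and VGLL1 had 0 in every library.

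Relatives of the members outside the 10 gave some larger values. AMOT, the founding angiomotin gene, was lower at 2.29 and 2.31 FPKM in the FGF2 libraries against 6.25 and 6.42 FPKM in the NC libraries, at a log2 fold change of -1.39 (-1.54 to -1.25). The angiomotin genes AMOT and AMOTL2 were thus both lower, while AMOTL1 at -0.17 was not called. Of the LIM relatives of AJUBA, WTIP was lower at -0.49 (-0.60 to -0.38) and LIMD1 stood at 0.11 (0.00 to 0.21). The genes of the 14-3-3 proteins, which hold phosphorylated YAP in the cytoplasm, were all called neither. They ranged from -0.04 (YWHAH) to 0.27 (YWHAB), with YWHAE at 0.14, YWHAG at 0.13, YWHAQ at 0.09, YWHAZ at 0.17 and SFN at 0.12.

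Among the partners of AXL, PROS1, which encodes the ligand protein S, was lower at -1.27 (-1.75 to -0.83) from 57 against 145 counts. The other ligand gene, GAS6, stood at 12.1 and 12.2 FPKM against 15.0 and 15.0 FPKM (-0.21, -0.29 to -0.12) and was called neither. The receptor gene TYRO3 was at -0.01, and MERTK had only 8 to 31 counts. AXL was the most abundant of the 3 TAM receptor genes in every library. The other CCN genes had few counts, with NOV at 11 to 29, WISP3 at 0 to 3 and WISP1 at 0. WISP2 had 0 and 1 counts with FGF2 and 35 and 45 in NC. CYR61 and CTGF were thus the CCN genes detected at high level. Of the relatives of ANKRD1, ANKRD2 had 5 and 13 counts with FGF2 and 49 and 98 in NC, and ANKRD23, which shares 73.5% of its exons with another gene, had 0 to 19.

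**Figure D4:**
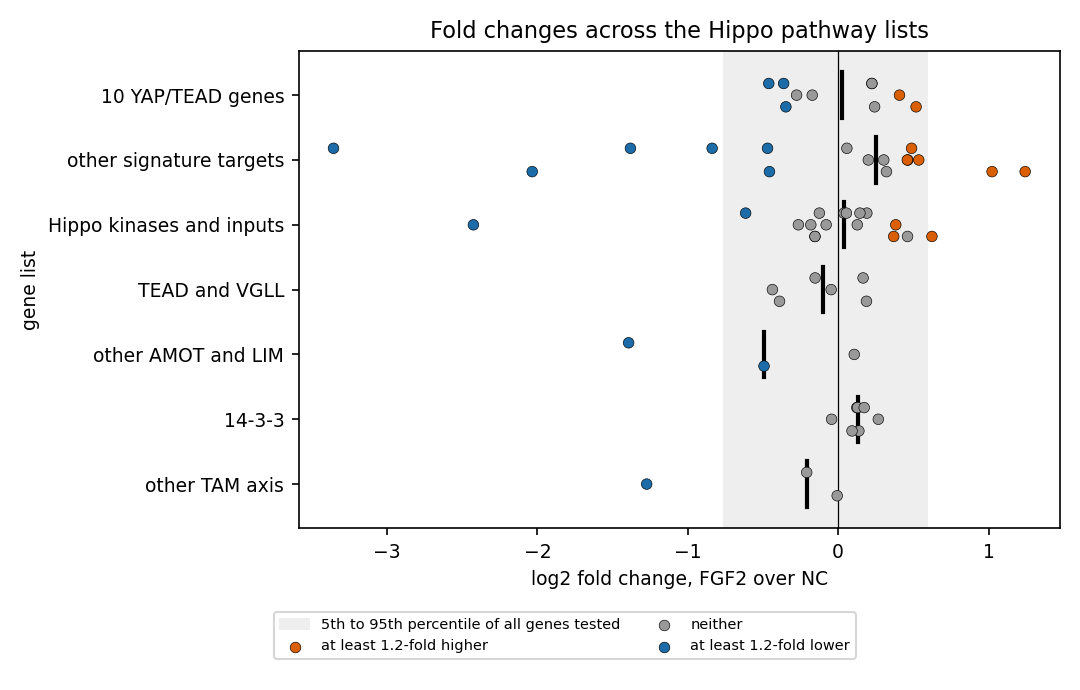
Log2 fold change of FGF2 over NC for each gene that reached 50 counts on average, by list (points coloured by the 1.2-fold call, vertical offsets only to separate them, black bars for list medians, grey band for the 5th to 95th percentile of all 11000 genes, -0.76 to 0.59). All 10 YAP/TEAD genes lie inside the grey band, while F3, NT5E, IGFBP3, CCDC80, TGFB2, FAT4 and AMOT are among the genes outside it.

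Markers of other cell types were read beside these values, because CYR61, CTGF and AXL are also made by fibroblasts. Of 12 fibroblast markers 4 had enough counts, of which 3 were lower (PDGFRB, COL1A1, COL5A1) and THY1 was neither. Over all genes tested 12.2% were higher and 13.7% lower. The summed level of the 12 was 108 to 110 FPKM in the FGF2 libraries and 198 to 202 FPKM in the NC libraries. COL1A2 and FAP were at 0 in all 4 libraries, and POSTN had at most 2 counts. LUM was at 0 with FGF2 and at 8 and 12 counts in NC, and DCN was at 0 with FGF2 and at 3 and 8 counts in NC. COL3A1 had 6 and 6 counts with FGF2 and 65 and 137 in NC. The other way, COL6A3 had 10 and 15 counts with FGF2 and 0 and 1 in NC, and PDGFRA 2 and 3 against 0 and 0. The 6 endothelial markers summed to at most 1.14 FPKM and the 6 blood and immune markers to at most 1.10 FPKM in any library. CDH5 had 15 to 35 counts, VWF 13 to 38, ESAM 20 to 65 and PECAM1 0 to 2, with KDR and TEK at 0. CD14 had 10 to 52 counts, ITGAM 2 to 6 and PTPRC 0 to 2, with CD3E, CD68 and MS4A1 at 0. The part of these markers in the values of the 10 genes was not tested. In bulk RNA, fewer cells of a type and less RNA per cell cannot be told apart.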

How the data were processed

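Polyadenylated RNA of AGS cells was sequenced in 4 libraries, 2 per group by their titles. The authors deposited raw read counts per gene and FPKM values, per the file headers. The submitters' processing notes name HISAT2, HTSeq 0.13.5 and GRCh38, without an annotation release. Among 11923 genes above 20 counts in all 4 libraries, 99.5% had an FPKM-implied length equal to the merged exon length in GENCODE 29, so coordinates are from that release. Counts were scaled by TMM in edgeR 4.0.16 over 14043 genes, 0.5 was added to each count, and intervals are exact Clopper-Pearson. With 1 sample per group no test across samples was made. The members and gene lists were chosen with earlier results of these data known. All 10 members are named. From longer pathway lists at most 4 called genes per direction are named, with some uncalled ones, and from lists of up to 8 genes all. Alternatives were other scalings, count minimums, added counts, single libraries and deposited FPKM. Protein sequences were not used here.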

Additional observations from a re-analysis of the deposited data

How the results depend on the processing

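All 10 members kept their direction under all 11 alternatives. WWTR1, AXL, CYR61, AMOTL2 and AJUBA were called the same way in each, and ANKRD1 and AMOTL1 were called neither in each. YAP1 was called higher from library 2 less library 1 alone (0.31), CTGF in 3 alternatives and LATS2 lower in 6, of which all but the total-count scaling compared 1 value per group. The members' median log2 fold change of 0.03 became -0.055 with the total count only and -0.054 with the deposited FPKM, because both lack the TMM shift of 0.08. With library 2 less library 1 alone, 1 member was at least 1.5-fold higher. Leaving out library 2 of 1 or both groups gave 2 to 3 members higher and 4 lower. A setting that compares 1 value per group asks for only 1 passing pair, a looser rule than the main one. The share of all genes passing that looser rule is not given. Counts from such settings, here and in the lists below, therefore cannot be set against 12.2% and 13.7%. Of the 6 TEAD and vestigial-like genes, 2 were called lower in 5 alternatives that compared 1 value per group (library 1 alone, NC library 2 left out, library 2 less library 1, mean of both libraries, deposited FPKM), and 1 was higher and 1 lower without FGF2 library 2. The Hippo cascade genes gave 2 to 6 higher and 1 to 4 lower, and the other signature targets 5 to 8 higher and 6 lower. The median of those targets, 0.25 in the main setting, ran from 0.13 with a minimum of 200 counts to 0.28 with library 2 less library 1. Over all genes, 47.1% of the 1.2-fold calls were higher with TMM and 32.5% with the total count only, when 932 genes were higher and 1933 lower. No paired analysis was possible because each group counts as 1 sample, its deeper library holding the counts of the shallower one, and no result comes from a test. Each member had 536 to 12448 counts per read set, and differences between cultures cannot be read from these data.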
